A study of Mus musculus with 44 samples.

Results

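Dbp, Tef and Nfil3 encode basic leucine zipper transcription factors that carry time-of-day information from the core clock to other genes. They were described here in CD45+CD11c+MHCIIhigh cells, which are migratory dendritic cells (DCs), sorted from draining inguinal lymph nodes of female mice. The genes were taken by symbol from the deposited expression table. All 3 of 3 were found among its 14699 genes, and all 3 passed the filter that left 11963 genes for testing. B16-F10-OVA cells, a mouse melanoma line that expresses ovalbumin, or PBS were injected at ZT3, ZT9, ZT15 or ZT21 (hours after lights on), and the nodes were collected 24 h later, so that injection and collection fell at the same time of day. The groups were mice of genotype WT with tumour cells (20 libraries, 5 per timepoint), mice labelled KO with tumour cells (12 libraries, 3 per timepoint) and WT mice that received PBS (12 libraries, 3 per timepoint). In the methods the mice labelled KO are Clec9a-cre:Bmal1flox mice (Bmal1ΔcDC), in which Cre driven by Clec9a acts in the lineage of conventional DCs, and mice were 8 to 12 weeks old. The methods name 5, 3 and 3 mice for these groups, which are the numbers of libraries per timepoint. Each library was therefore taken to come from 1 mouse. Values are CPM, the reads of a gene per 1000000 reads on all listed genes.

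DBP and TEF belong to the PAR-bZIP family, activators that bind an element called the D-box, and HLF is the remaining member of that family. NFIL3 (also known as E4BP4) binds the same element and represses. In many tissues the BMAL1-CLOCK complex drives Dbp through E-boxes, whereas Nfil3 is repressed by REV-ERB proteins, the products of Nr1d1 and Nr1d2. PAR-bZIP activators and NFIL3 are therefore often described as opposite in phase at shared D-boxes. NFIL3 is also known for its requirement in the development of type 1 conventional DCs and of natural killer (NK) cells.

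The promoters show which of these elements lie next to the annotated start of each gene. RefSeq windows of 300 bases (250 before and 50 after a start, GRCm38.p6) matched all 3 genes, with 2 alternative starts for Tef. The window of Dbp is chr7:45704997-45705296 on the plus strand, those of Tef are chr15:81802423-81802722 and chr15:81811164-81811463 on the plus strand, and that of Nfil3 is chr13:52980990-52981289 on the minus strand. They are printed 5′ to 3′ on the strand of the gene, with matches of the searched motifs in capitals.
Dbp: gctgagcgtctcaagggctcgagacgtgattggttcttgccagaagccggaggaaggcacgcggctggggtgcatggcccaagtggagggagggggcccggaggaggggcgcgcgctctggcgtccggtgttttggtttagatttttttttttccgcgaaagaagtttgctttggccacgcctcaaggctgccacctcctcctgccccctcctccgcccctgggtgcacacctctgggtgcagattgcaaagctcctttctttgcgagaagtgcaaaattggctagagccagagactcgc
Tef, upstream start: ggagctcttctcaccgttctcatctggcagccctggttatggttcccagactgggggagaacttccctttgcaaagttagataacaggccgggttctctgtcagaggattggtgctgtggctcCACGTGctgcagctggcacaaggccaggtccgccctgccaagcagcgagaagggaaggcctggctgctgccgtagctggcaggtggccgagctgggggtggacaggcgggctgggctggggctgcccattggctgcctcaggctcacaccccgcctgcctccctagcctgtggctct
Tef, downstream start: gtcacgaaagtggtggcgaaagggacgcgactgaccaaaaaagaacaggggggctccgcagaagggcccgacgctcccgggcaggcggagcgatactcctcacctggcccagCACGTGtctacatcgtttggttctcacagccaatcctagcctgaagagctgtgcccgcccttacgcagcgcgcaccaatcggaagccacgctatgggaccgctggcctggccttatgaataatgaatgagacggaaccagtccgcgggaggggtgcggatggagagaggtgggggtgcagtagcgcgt
Nfil3: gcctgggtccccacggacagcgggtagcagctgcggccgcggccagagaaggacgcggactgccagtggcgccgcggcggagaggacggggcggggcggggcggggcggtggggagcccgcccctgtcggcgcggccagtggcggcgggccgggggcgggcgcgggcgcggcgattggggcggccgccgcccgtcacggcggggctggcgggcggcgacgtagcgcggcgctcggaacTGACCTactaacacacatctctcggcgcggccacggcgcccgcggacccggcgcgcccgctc
The motifs searched on both strands were the E-box CACGTG, the related CACGTT, the D-box TTANGTAA and AGGTCA, a half-site of nuclear receptors such as REV-ERB. Each Tef window held 1 E-box, with its first base 127 and 138 bases before the start (positions -127 and -138), and 7.15% of 32851 windows of this length held one. The Nfil3 window held AGGTCA on the opposite strand (printed as TGACCT), beginning at position -12, as 16.3% of windows held that motif. None of the searched letters occurred in the window of Dbp, and neither CACGTT (4.68% of windows) nor the D-box (2.32%) occurred in any of the 4 windows. Sequence outside these windows, further from the start or within introns, was not searched, so E-boxes of Dbp may lie there.

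The genes lie on different chromosomes. In the GENCODE annotation of GRCm38, Dbp (ENSMUSG00000059824) spans chr7:45705088-45710203 with 2993 exon bases, Tef (ENSMUSG00000022389) spans chr15:81802421-81826863 with 7867 exon bases, and Nfil3 (ENSMUSG00000056749) spans chr13:52967209-52981073 with 2026 exon bases. Divided by exon length, Nfil3 was the highest of these genes in 44 of 44 libraries, and Dbp was higher than Tef in 40 of 44. In WT mice with tumour cells the level was 39.6 ± 9.91 CPM per kb for Nfil3, 11.5 ± 2.99 for Dbp and 7.79 ± 2.12 for Tef (SD, n = 20). The order of Dbp and Tef rests on this division, because in CPM Dbp was the lower in these mice, at 34.3 ± 8.94 against 61.3 ± 16.7. Hlf, the fourth gene of the group by function, was far lower at 0.0759 ± 0.0733 CPM per kb.

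The first question was whether each gene varied with the time of day. Dbp did in WT mice with tumour cells, with its highest level at ZT15 and its lowest at ZT3. At ZT3 the 5 libraries had 27.7, 26.4, 15.3, 29.0 and 20.1 CPM, and at ZT9 they had 42.4, 40.3, 39.9, 33.5 and 41.4 CPM. At ZT15 they had 39.9, 46.3, 42.7, 42.9 and 48.1 CPM, and at ZT21 they had 26.7, 34.1, 30.6, 31.0 and 27.8 CPM. The libraries of ZT15 did not overlap with those of ZT3 or ZT21, and those of ZT9 did not overlap with those of ZT3, whereas ZT9 and ZT15 overlapped, as did ZT3 and ZT21. Of all genes tested, 0.920% lay wholly higher at ZT15 than at ZT3, 1.40% higher at ZT15 than at ZT21 and 1.58% higher at ZT9 than at ZT3. The means were 23.7 ± 5.81, 39.5 ± 3.51, 43.99 ± 3.23 and 30.0 ± 2.94 CPM (SD, n = 5) at ZT3, ZT9, ZT15 and ZT21, a ratio of 1.86 between the highest and the lowest. In bulk RNA, a change in the share of cells that express a gene and a change in RNA per cell cannot be told apart.

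A 24-h cosine fitted to log2(CPM + 0.5) of Dbp in these 20 libraries rose 0.50 ± 0.07 (SE) from its centre to its peak, the amplitude, and reached the peak at 13.5 ± 0.56 h, the acrophase. In limma its p was the second smallest of all genes, and the Benjamini–Hochberg adjusted p was 0.0268, in a comparison that called 0.0251% of genes. The test of any difference between timepoints gave an adjusted p of 0.0056, with 5.28% of genes called. The single difference between ZT15 and ZT3 was 0.91 ± 0.14 on the log2 scale and had the smallest p of all genes (4.2e-06), but its adjusted p of 0.0503 missed the threshold. That contrast called 0 genes in limma, while 1043 (8.72%) had an unadjusted p under 0.05. The call of the cosine was lost without any 1 of 9 of the 20 libraries (replicates 1 and 5 of ZT3, 2 and 3 of ZT9, 2, 4 and 5 of ZT15, and 3 and 4 of ZT21), with adjusted p from 0.0514 to 0.0937. It was also lost when all reads of Sphk2, which overlaps Dbp, were added (amplitude 0.21, adjusted p = 0.28). Adding the reads of a gene that was not called to vary makes a log2 amplitude smaller by construction.

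**Figure D1:**
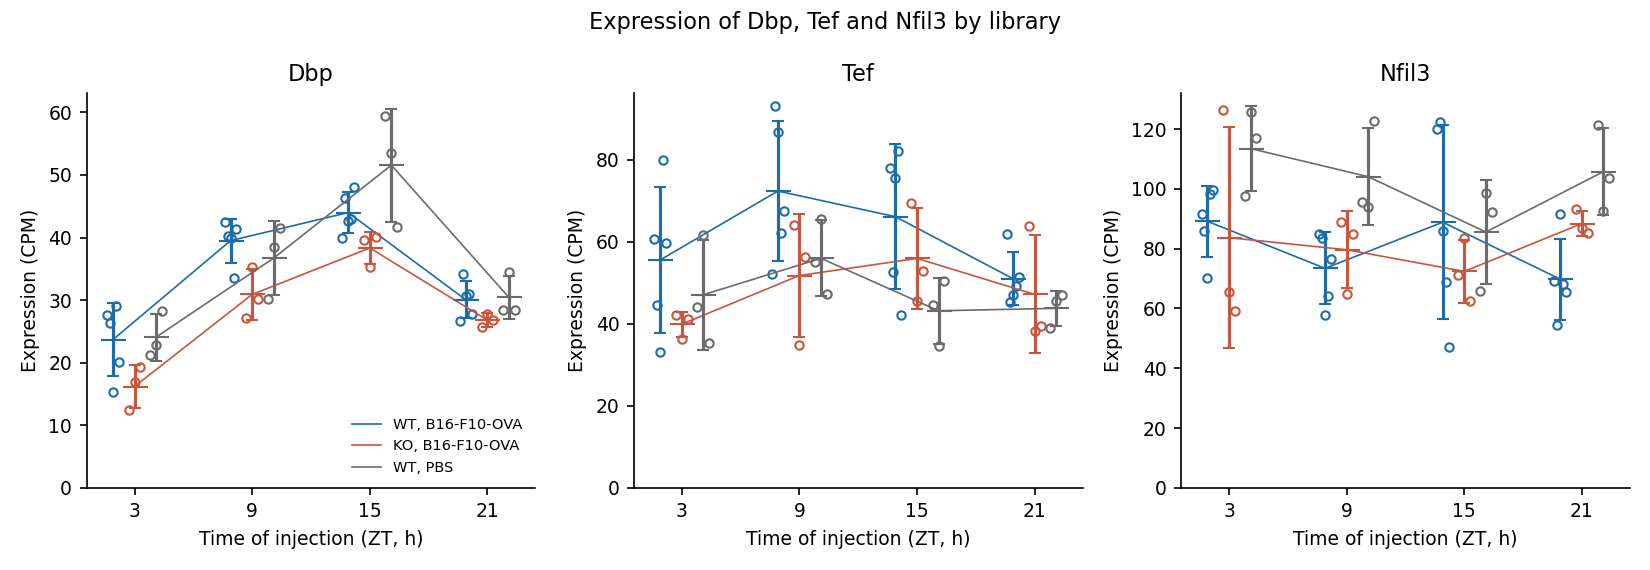
Expression in CPM of Dbp, Tef and Nfil3 (y axes, linear from 0) by time of injection (x axes, ZT in hours) in WT mice with tumour cells (n = 5 per timepoint), mice labelled KO with tumour cells (n = 3) and WT mice with PBS (n = 3). Open circles are libraries, and bars are mean ± SD. Dbp is lowest at ZT3 and highest at ZT15 in all 3 groups, whereas the libraries of Tef and Nfil3 spread widely within timepoints.

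Dbp had the same order of timepoints in mice labelled KO. The libraries had 12.4, 16.9 and 19.3 CPM at ZT3, 27.2, 35.3 and 30.2 at ZT9, 39.6, 35.3 and 40.1 at ZT15, and 25.7, 27.8 and 26.9 at ZT21. All libraries of ZT15 were above those of every other timepoint, the lowest of ZT15 only just above the highest of ZT9, and all of ZT3 were below. The means of Dbp were 16.2 ± 3.49, 30.9 ± 4.08, 38.3 ± 2.62 and 26.8 ± 1.06 CPM (SD, n = 3), a ratio of 2.37 between ZT15 and ZT3. Among all genes, with 3 libraries against 3, 12% lay wholly higher at ZT15 than at ZT3, 16.3% than at ZT9 and 5.81% than at ZT21, and 4.42% and 8.61% lay wholly higher at ZT9 and ZT21 than at ZT3. The cosine (amplitude 0.63 ± 0.10, acrophase 14.4 ± 0.59 h) had an unadjusted p of 0.000166 and an adjusted p of 0.232 in limma. No gene was called by the cosine in this group, in which 1258 genes (10.5%) had an unadjusted p under 0.05. The difference between ZT15 and ZT3 in Dbp was 1.24 ± 0.18 on the log2 scale (adjusted p = 0.157).

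After PBS alone, Dbp was also lowest at ZT3 and highest at ZT15. The libraries had 21.2, 22.8 and 28.3 CPM at ZT3, 30.2, 38.4 and 41.5 at ZT9, 59.5, 53.5 and 41.7 at ZT15, and 28.4, 34.5 and 28.4 at ZT21. The libraries of ZT15 were above those of every other timepoint and those of ZT9 and ZT21 were above those of ZT3. The narrowest gaps were those between 28.3 and 28.4 CPM (ZT3 and ZT21) and between 41.5 and 41.7 CPM (ZT9 and ZT15). Here 6.59%, 6.78% and 7.56% of genes lay wholly higher at ZT15 than at ZT3, ZT9 and ZT21, and 3.54% and 3.29% lay wholly higher at ZT9 and ZT21 than at ZT3. The means of Dbp were 24.1 ± 3.75, 36.7 ± 5.87, 51.6 ± 9.04 and 30.4 ± 3.497 CPM (SD, n = 3), a ratio of 2.14 between ZT15 and ZT3. The cosine (amplitude 0.55 ± 0.09, acrophase 14.1 ± 0.64 h) had an unadjusted p of 0.000304 and an adjusted p of 0.519, and the difference between ZT15 and ZT3 was 1.08 ± 0.19 (adjusted p = 0.311). By the cosine 0 genes were called after PBS in limma, and 883 (7.38%) had an unadjusted p under 0.05.

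Whether the course of Dbp differed between groups was tested as an interaction of group and timepoint. The adjusted p was 0.613 for mice labelled KO against WT mice and 0.847 for PBS against tumour cells, in limma fits that called 0.0502% and 0% of genes (18.3% and 11.9% had an unadjusted p under 0.05). The ZT15 to ZT3 difference ranged from 0.91 ± 0.14 to 1.24 ± 0.18 over the groups, so that these data neither show a difference in the course nor show that it was equal. Between ZT9 and ZT21, the other pair of opposite times, Dbp differed by 0.39 ± 0.14 in WT mice with tumour cells (adjusted p = 0.315), by 0.19 ± 0.18 in mice labelled KO (adjusted p = 0.688) and by 0.26 ± 0.19 after PBS (adjusted p = 1). This contrast called 0.226%, 0.00836% and 0% of genes.

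**Figure D2:**
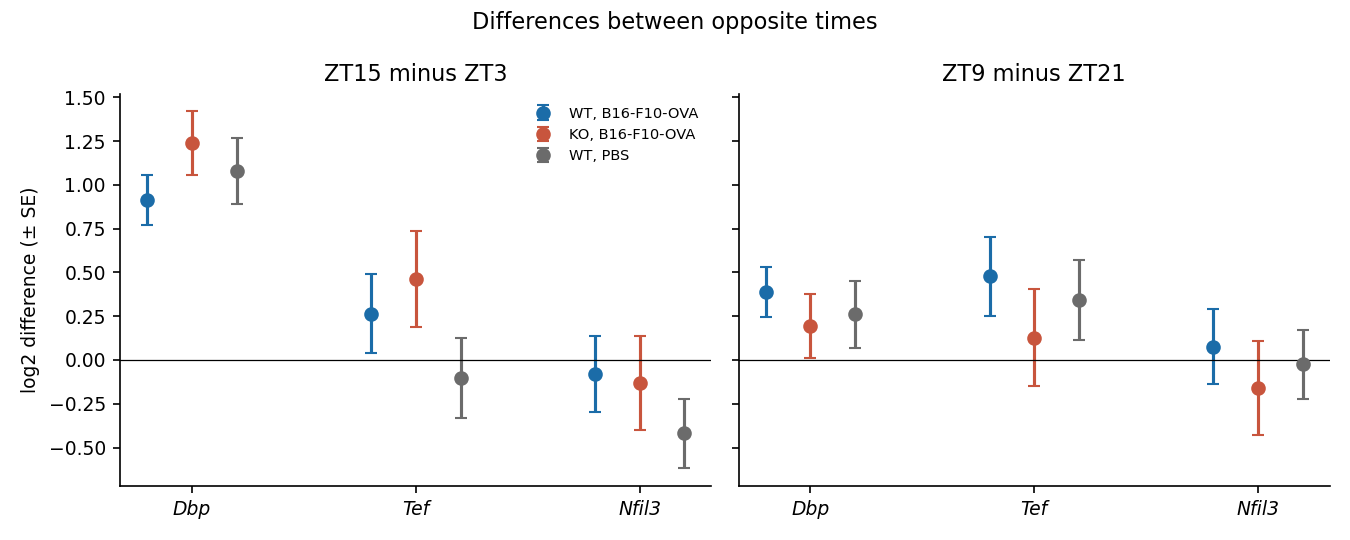
Differences in log2(CPM + 0.5) between opposite times, ZT15 minus ZT3 and ZT9 minus ZT21 (y axes), for Dbp, Tef and Nfil3 (x axes) in the 3 groups. Points are estimates and bars are ± SE of the limma fit. The ZT15 minus ZT3 difference of Dbp lies between 0.91 and 1.24 in every group, and those of Tef and Nfil3 lie between -0.42 and 0.46.

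Tef, the other activator, showed no called rhythm. The cosine called 0.0251% of all genes in WT mice with tumour cells and 0% in the other groups, so nearly all genes lacked a call. In WT mice with tumour cells the libraries had 60.6, 44.6, 33.0, 80.0 and 59.7 CPM at ZT3, 52.2, 93.2, 86.8, 62.2 and 67.5 at ZT9, 78.0, 52.7, 75.6, 82.2 and 42.1 at ZT15, and 61.8, 45.4, 47.1, 49.2 and 51.4 at ZT21. Every pair of timepoints compared overlapped, and within ZT3 alone the libraries of Tef spread from 33.0 to 80.0 CPM. The means were 55.6 ± 17.8, 72.4 ± 17.1, 66.1 ± 17.6 and 51.0 ± 6.46 CPM (SD, n = 5). The cosine peaked at 10.9 ± 1.55 h, with an amplitude of 0.27 ± 0.11, an unadjusted p of 0.0719 and an adjusted p of 0.584. The largest difference between opposite times, ZT9 minus ZT21, was 0.48 ± 0.23 on the log2 scale (adjusted p = 0.434). 

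Mice labelled KO had Tef values of 42.1, 36.4 and 41.2 CPM at ZT3, 64.0, 34.9 and 56.4 at ZT9, 69.4, 45.5 and 52.9 at ZT15, and 63.8, 38.3 and 39.5 at ZT21. Here ZT15 was above ZT3 with no overlap, as were 12% of genes, and the difference of 0.46 ± 0.28 had an adjusted p of 0.717. After PBS, Tef had 44.1, 61.8 and 35.4 CPM at ZT3, 55.0, 65.7 and 47.3 at ZT9, 44.5, 34.6 and 50.4 at ZT15, and 38.9, 45.5 and 47.0 at ZT21. In that group ZT9 was above ZT21 with no overlap, as were 6.65% of genes, and the difference of 0.34 ± 0.23 had an adjusted p of 0.997. The cosine of Tef had an adjusted p of 0.642 in mice labelled KO and of 0.791 after PBS. For the interactions with group, the adjusted p was 0.86 and 0.892.

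Nfil3, the repressor, had no called rhythm in any group, as nearly all genes had none (0.0251% called in WT mice with tumour cells and 0% in the other groups). In WT mice with tumour cells the libraries had 91.7, 85.9, 70.3, 98.2 and 99.8 CPM at ZT3, 84.9, 83.7, 57.7, 64.1 and 76.7 at ZT9, 120, 122, 86.0, 68.9 and 47.2 at ZT15, and 69.2, 54.6, 91.6, 68.1 and 65.4 at ZT21. All timepoints compared overlapped, and ZT15 alone held both the highest and the lowest library of Nfil3 in this group. The means were 89.2 ± 11.9, 73.4 ± 12.05, 88.9 ± 32.5 and 69.8 ± 13.5 CPM (SD, n = 5). The amplitude was 0.06 ± 0.12 (adjusted p = 0.962), so that no acrophase can be given with any precision (SE 7.95 h).

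Nfil3 in mice labelled KO had 126, 65.5 and 59.3 CPM at ZT3, 89.1, 64.9 and 84.9 at ZT9, 71.1, 83.5 and 62.6 at ZT15, and 93.2, 86.8 and 85.2 at ZT21. A single library of ZT3 stood at 126 CPM, and ZT15 lay below ZT21 with no overlap (4.72% of genes lay in this way). After PBS, Nfil3 had 97.7, 126 and 117 CPM at ZT3, 95.7, 93.8 and 123 at ZT9, 65.9, 98.5 and 92.2 at ZT15, and 121, 92.5 and 104 at ZT21. The lowest mean after PBS was that of ZT15, where Dbp was highest, and the ZT15 to ZT3 difference of Nfil3 was -0.42 ± 0.20 (adjusted p = 0.515). The adjusted p of the cosine was 0.897 in mice labelled KO and 0.704 after PBS, and that of the interaction with group was 0.593 and 0.71.

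Because activators and repressor compete for the same element, their levels were also set against each other within each library. The log2 difference Dbp minus Nfil3 was lowest at ZT3 in every group. Its mean was -1.92 ± 0.28, -0.87 ± 0.20, -0.92 ± 0.64 and -1.19 ± 0.33 (SD, n = 5) at ZT3, ZT9, ZT15 and ZT21 in WT mice with tumour cells. In that group all libraries of ZT3 (-2.28 to -1.68) lay below all others (the lowest of which was -1.57), by a narrow gap. Neither Dbp nor Nfil3 alone separated ZT3 from ZT21 there. How often other pairs of genes separate in this way was not computed, so the separation cannot be weighed against a background. In mice labelled KO the mean of Dbp minus Nfil3 went from -2.27 ± 0.90 at ZT3 to -0.90 ± 0.30 at ZT15, and after PBS from -2.22 ± 0.21 to -0.72 ± 0.51 (SD, n = 3). In both of these groups ZT3 overlapped with ZT21 in this difference, whereas Dbp alone did not overlap there. The libraries ranged from -3.30 to -1.60 at ZT3 and from -1.84 to -1.62 at ZT21 in mice labelled KO. After PBS they ranged from -2.44 to -2.03 and from -2.07 to -1.41. The corresponding difference for Tef minus Nfil3 had its lowest mean at ZT3 in each group as well, at -0.73 ± 0.31 in WT mice with tumour cells, -0.98 ± 0.54 in mice labelled KO and -1.29 ± 0.37 after PBS, but with overlap between the timepoints. These differences are a description and were not tested.

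**Figure D3:**
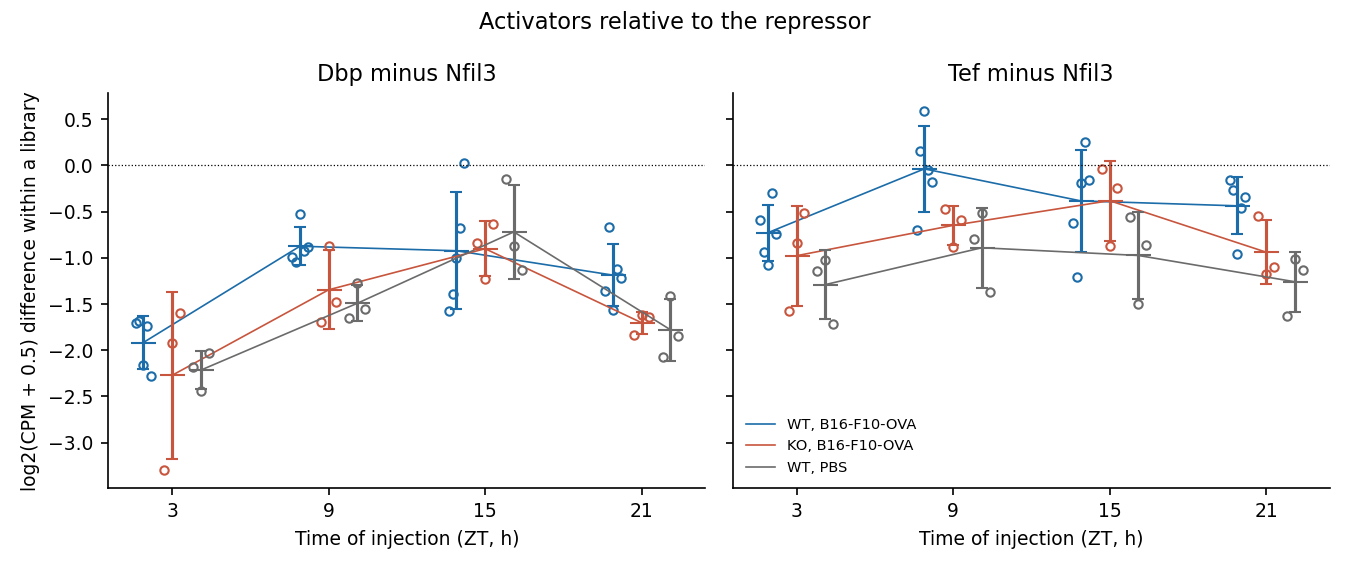
Difference in log2(CPM + 0.5) within a library (y axes) between Dbp and Nfil3 and between Tef and Nfil3 by time of injection (x axes, ZT in hours) in the 3 groups. Open circles are libraries and bars are mean ± SD. Dbp minus Nfil3 has its lowest mean at ZT3 in each group (-1.92, -2.27 and -2.22), and the dotted line marks equal CPM.

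The next question was whether the average level of each gene, over all timepoints, differed between groups. These averages need a wide background, since 33.7% of all genes differed between mice labelled KO and WT mice and 37.9% between PBS and tumour cells at an adjusted p under 0.05. Dbp was lower in mice labelled KO, at 28.1 ± 8.75 CPM (SD over timepoints, n = 12) against 34.3 ± 8.94 CPM (n = 20). The difference was -0.31 ± 0.08 on the log2 scale (adjusted p = 0.00408), with 10.2% of genes called in this direction. The mean was lower at 4 of 4 timepoints, with differences of -0.52 at ZT3, -0.35 at ZT9, -0.20 at ZT15 and -0.16 at ZT21 on the log2 scale, a set of 4 values that was not tested for a trend. The call was lost when all reads of Sphk2 were added to those of Dbp (difference -0.03, adjusted p = 0.73). Adding the reads of a gene that was not called to differ between these groups makes such a difference smaller by construction. After PBS, Dbp had 35.7 ± 11.8 CPM, with a difference from tumour cells of 0.04 ± 0.08 (adjusted p = 0.722).

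Tef was lower after PBS than with tumour cells, with 47.5 ± 9.58 against 61.3 ± 16.7 CPM (SD, n = 12 and 20), a difference of -0.34 ± 0.12 (adjusted p = 0.0311). The mean of Tef was lower at 4 of 4 timepoints, and 13.3% of genes were called lower. This call was lost without any 1 of 4 PBS libraries (replicate 3 of ZT3, 3 of ZT9, 2 of ZT15 or 1 of ZT21, with adjusted p from 0.0567 to 0.0723). The level of Tef was 48.7 ± 12.1 CPM in mice labelled KO, and its difference of -0.32 ± 0.13 from WT mice had an adjusted p of 0.0621. That value passed the threshold with median-of-ratios scaling (adjusted p = 0.00749) and with array weights (0.00306).

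Nfil3 was higher after PBS, with 102 ± 17.1 against 80.3 ± 20.1 CPM (SD, n = 12 and 20). The difference was 0.37 ± 0.11 (adjusted p = 0.0124), with 24.6% of genes called higher. At ZT9 and ZT21 every PBS library was above every library with tumour cells, a pattern shared by 13.3% and 10% of all genes. The differences of Nfil3 were 0.35, 0.51, 0.01 and 0.61 at ZT3, ZT9, ZT15 and ZT21 on the log2 scale. In CPM its mean after PBS was higher at 3 of 4 timepoints, and at ZT15 it was 85.6 against 88.9 CPM. The level of Nfil3 was 81.0 ± 18.4 CPM in mice labelled KO, and its difference from WT mice was 0.02 ± 0.12 (adjusted p = 0.905), with a sign that turned under median-of-ratios scaling.

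**Figure D4:**
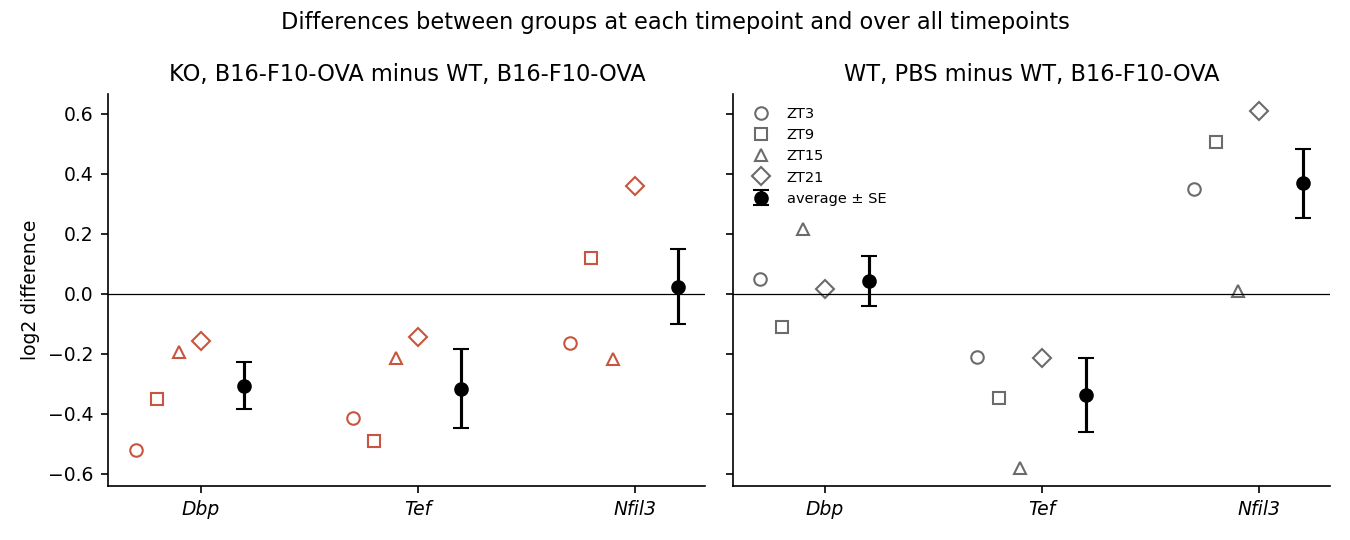
Differences in log2(CPM + 0.5) from WT mice with tumour cells (y axes) for mice labelled KO (first panel) and for WT mice with PBS (second panel). Open symbols are differences of means at ZT3, ZT9, ZT15 and ZT21, and filled circles with bars are the average over timepoints ± SE. Dbp and Tef lie below 0 at every timepoint in mice labelled KO, and Nfil3 lies well above 0 after PBS at ZT3, ZT9 and ZT21 but at 0.01 at ZT15.

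The groups also differed in other respects that stand beside these averages. Reads on genes ranged from 20088012 to 28962671 in WT mice with tumour cells, from 29406729 to 55799163 in mice labelled KO and from 28003328 to 49590055 after PBS. All 9 defining genes of the sorted DCs were detected, and their sum was 23642 to 35458 CPM in WT mice with tumour cells, 25027 to 35143 in mice labelled KO and 25091 to 34075 after PBS. The sum of 12 T cell markers was 316 to 748 CPM in WT mice with tumour cells, 503 to 1177 in mice labelled KO and 629 to 1329 after PBS. For 7 NK cell markers it was 40.1 to 85.1, 61.6 to 167 and 102 to 456 CPM in the same order. For 7 macrophage markers it was 56.2 to 151, 104 to 542 and 169 to 287 CPM. For 5 markers of plasmacytoid DCs it was 156 to 239, 135 to 300 and 243 to 354 CPM. The sum of 12 immediate early and dissociation genes was 4827 to 8995, 8164 to 12844 and 9116 to 14885 CPM. The sums of T cell, NK cell, macrophage and immediate early genes had higher medians after PBS, where Nfil3 was higher and Tef lower, and also in mice labelled KO, where Dbp was lower. Between times, the median over the T cell markers was 0.12 for ZT15 minus ZT3 and -0.67 for ZT9 minus ZT21 on the log2 scale in WT mice with tumour cells (0 and 1 of 12 called, against 0% and 0.226% of all genes). At an unadjusted p under 0.05 in limma there were 1 and 11 of 12, against 8.72% and 11.5% of all genes. The median over the macrophage markers was 1.31 for ZT15 minus ZT3 in mice labelled KO (0 of 7 called, 5 at an unadjusted p under 0.05 in limma, against 8.06% of all genes). The test of any difference between timepoints, which called Dbp and 5.28% of all genes in WT mice with tumour cells, also called 2 of 12 T cell markers (Cd3d and Cd3g), 2 of 7 NK cell markers (Ncr1 and Klre1), 3 of 7 macrophage markers (Adgre1, Cd68 and Csf1r) and 4 of 12 immediate early and dissociation genes (Fos, Egr1, Ier2 and Nr4a1), whereas the cosine called 0 of them (T cells 10, NK cells 1, macrophages 0 and immediate early genes 0 at an unadjusted p under 0.05 in limma, against 9.20% of all genes). Their part in the differences of Nfil3, Tef and Dbp was not tested. B cell markers (8 genes, 39.8 to 149 CPM) and granulocyte markers (4 of 5 genes, 0.434 to 30.0 CPM) had low sums over all libraries, as had melanoma markers (6 genes, 1.105 to 22.1 CPM), of which Mlana and Tyr did not reach 0.5 CPM in any library.

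Arntl, the gene floxed in mice labelled KO, was measured at 14.8 ± 3.65 CPM in WT mice with tumour cells (SD, n = 20), 19.9 ± 6.91 in the libraries labelled KO (n = 12) and 21.7 ± 6.11 after PBS (n = 12). The level in the libraries labelled KO was 0.38 ± 0.12 higher on the log2 scale (adjusted p = 0.0153, and 0.056 with median-of-ratios scaling) and was not reduced. Values per gene count reads over all exons, and reads over the floxed part alone were not analysed here. The direction of each difference of Dbp, Tef and Nfil3 between genotypes therefore rests on the label.

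The level of Dbp needs 1 further qualification, because its last exon runs into that of Sphk2, which encodes a sphingosine kinase and lies on the opposite strand. The genes overlap tail to tail over chr7:45709467-45710203, with 539 shared exon bases, 18.0% of the exon bases of Dbp. The kit used does not mark the strand. The value of Dbp was a fraction of a read in 43 of 44 libraries, as was that of Sphk2, whereas Tef and Nfil3 had whole reads in all 44. The reads of Dbp and Sphk2 added up to a whole number in 44 of 44 libraries (within 0.01 reads), and Dbp held 20.03% to 60.6% of the sum. How reads of the overlap were shared out is not given in the sources used here, and reads from either gene cannot be told apart there.

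Sphk2 itself was called by no test of time in any group. The mean of Dbp in WT mice with tumour cells was 20.3 CPM higher at ZT15 than at ZT3, that of Sphk2 was 1.61 CPM lower, and that of their sum was 18.7 CPM higher. The corresponding differences in mice labelled KO were 22.1 CPM for Dbp, 1.04 for Sphk2 and 23.2 for the sum, and after PBS they were 27.5, -5.58 and 21.9 CPM. The sum of both genes in WT mice with tumour cells was 79.0 ± 11.9, 96.6 ± 4.49, 97.7 ± 4.83 and 80.2 ± 8.60 CPM (SD, n = 5) at ZT3, ZT9, ZT15 and ZT21. With the sum in place of Dbp, an alternative chosen after seeing the data, the cosine had an adjusted p of 0.28 (unadjusted p = 0.00288) and the test of any difference between timepoints 0.0842. The average difference between mice labelled KO and WT mice was -0.03 for the sum, with an adjusted p of 0.73 in limma. Sphk2 alone had 58.5 ± 8.12 CPM in mice labelled KO and 54.1 ± 6.75 CPM in WT mice with tumour cells (SD, n = 12 and 20), the opposite direction to Dbp. Adding its reads makes a difference of Dbp smaller by construction. The sum therefore cannot show whether the lower Dbp in mice labelled KO depends on the shared reads.

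**Figure D5:**
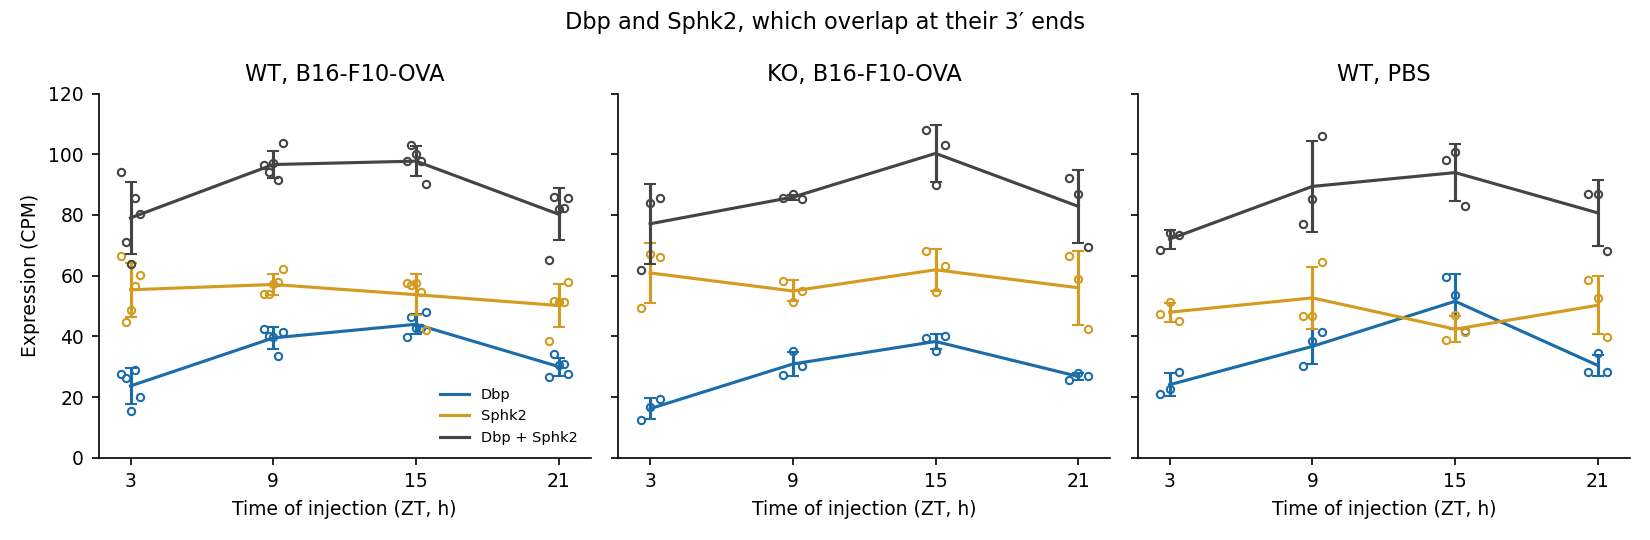
Expression in CPM (y axes, linear from 0) of Dbp, of Sphk2 and of their sum by time of injection (x axes, ZT in hours), 1 panel per group. Open circles are libraries and bars are mean ± SD. The sum carries 18.7, 23.2 and 21.9 CPM of difference between ZT15 and ZT3 in WT mice with tumour cells, mice labelled KO and PBS mice, against 20.3, 22.1 and 27.5 CPM for Dbp alone.

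Hlf, the remaining PAR-bZIP gene, was measured at a very low level, from 0 to 369 reads per library. In WT mice with tumour cells its mean was 0.883 ± 0.452 CPM at ZT3, 0.0445 ± 0.0623 at ZT9, 0.936 ± 0.238 at ZT15 and 0.166 ± 0.232 at ZT21 (SD, n = 5), with 3 of 5 libraries of ZT9 and of ZT21 at 0. The test of any difference between timepoints called Hlf (adjusted p = 0.0056), and its cosine was not called (adjusted p = 0.948). High and low values of Hlf alternated at 6-h steps. On average Hlf was higher in mice labelled KO, by 1.47 ± 0.26 (adjusted p = 8.38e-05), and after PBS, by 2.00 ± 0.18 (adjusted p = 1.75e-09), on the log2(CPM + 0.5) scale. Dbp and Tef were not called higher in either group.

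Among 15 other genes of the clock, 14 were tested. The cosine called 0 of 14 in WT mice with tumour cells, with 2 at an unadjusted p under 0.05 in limma (Npas2 and Per1), where 9.20% of all genes had such a p. In each of the other groups it also called 0 of 14, with 4 at an unadjusted p under 0.05 in limma, where 10.5% (KO) and 7.38% (PBS) of all genes had such a p. The test of any difference between timepoints called 1 of 14, Hlf, in WT mice with tumour cells, against 5.28% of all genes, and with median-of-ratios scaling it also called Bhlhe40 (adjusted p = 0.0182). Per1, a repressor of the core loop and target of E-boxes, had 11.05 ± 2.89, 18.3 ± 2.00, 14.1 ± 2.41 and 11.3 ± 3.89 CPM (SD, n = 5) at ZT3, ZT9, ZT15 and ZT21, and its cosine peaked at 10.7 h (amplitude 0.41 ± 0.11, adjusted p = 0.295). That of Nr1d2 peaked at 10.6 h (amplitude 0.41 ± 0.16, adjusted p = 0.563) and that of Nr1d1 at 10.3 h (0.34 ± 0.26, adjusted p = 0.784). Arntl, whose product activates E-boxes, peaked at 3.04 h (0.24 ± 0.10, adjusted p = 0.576). None of these fits was called, and their phases were not tested against that of Dbp.

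On average over timepoints, 8 of 14 clock genes differed between mice labelled KO and WT mice, against 33.7% of all genes. Higher were Arntl, Cry1, Nr1d1, Rora, Bhlhe40 and Hlf, and lower were Per1 and Per3. With median-of-ratios scaling Arntl was not called (adjusted p = 0.056 in limma). The median over the list was 0.22 on the log2 scale, against 0.10 for all genes tested. Per1 was lower by -0.59 ± 0.14 (adjusted p = 0.00151), the direction of Dbp, and Nr1d1 was higher by 1.02 ± 0.24 (adjusted p = 0.00169). Nr1d2 differed by -0.09 ± 0.19 (adjusted p = 0.738). After PBS, 6 of 14 differed, a share near the 37.9% of all genes, and all were higher (Arntl, Cry1, Nr1d1, Rora, Bhlhe40 and Hlf), although with median-of-ratios scaling Per3 and Cry2 were also called, as lower. The list median was 0.38 against 0.04 for all genes. Nr1d1 encodes a repressor of Arntl and Nfil3. Nr1d1 was higher after PBS by 1.61 ± 0.26 (adjusted p = 1.85e-05). The interaction of group and timepoint called 0 of 14 in either comparison, with 1 of 14 (KO) and 2 of 14 (PBS) at an unadjusted p under 0.05 in limma, against 18.3% and 11.9% of all genes.

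Of 6 reported targets of PAR-bZIP factors, 4 were tested, and 0 were called by the cosine or by the test of any difference between timepoints in any group, with only Alas1 (cosine, WT mice with tumour cells) at an unadjusted p under 0.05 in limma. In that group the cosine and the timepoint test called 0.0251% and 5.28% of all genes, and 9.20% had an unadjusted p under 0.05 for the cosine. In mice labelled KO and after PBS both tests called 0% of all genes, so the absence of calls there says nothing particular to these targets. Alas1, which encodes the first enzyme of haem synthesis, peaked at 13.4 h with an amplitude of 0.19 ± 0.07, an unadjusted p of 0.03 and an adjusted p of 0.479. On average over timepoints, 2 of 4 targets were called in each comparison, where 33.7% (KO) and 37.9% (PBS) of all genes were. Por, the reductase that serves cytochrome P450 enzymes, was higher in mice labelled KO (0.42 ± 0.08, adjusted p = 0.000285), and Pdxk, pyridoxal kinase, was lower (-0.45 ± 0.09, adjusted p = 0.000389). After PBS, Por was higher by 0.21 ± 0.08 (adjusted p = 0.0365, and 0.126 with median-of-ratios scaling) and Pdxk lower by -0.55 ± 0.08 (adjusted p = 8.53e-06). The list median was 0.20 in mice labelled KO and 0.16 after PBS, against 0.10 and 0.04 for all genes.

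Transcription factors of conventional DC development were counted alongside Nfil3, which is best known in these cells for the development of type 1 DCs. They were Irf8, Batf3, Id2, Zeb2, Irf4, Batf, Bcl6 and Spi1. All 8 were tested, and 0 of 8 varied with time at an adjusted p under 0.05 in any group by the cosine. At an unadjusted p under 0.05 in limma there were 3 (Irf8, Batf and Spi1) in WT mice with tumour cells, 0 in mice labelled KO and 2 (Batf3 and Bcl6) after PBS, where 9.20%, 10.5% and 7.38% of all genes had such a p. After PBS, where Nfil3 was higher, 6 of 8 differed on average. Irf8, Id2, Batf and Spi1 were higher, and Batf3 and Zeb2 were lower, where 37.9% of all genes differed. With median-of-ratios scaling the call of Spi1 was lost (adjusted p = 0.136). Among them, Id2 was higher by 0.41 ± 0.08 (adjusted p = 0.000123), Irf8 by 0.47 ± 0.07 (adjusted p = 1.29e-05), and Batf3 was lower by -0.30 ± 0.08 (adjusted p = 0.00248). The list median was 0.08 against 0.04 for all genes. In the libraries labelled KO, 4 of 8 differed (Id2, Bcl6 and Spi1 higher, Zeb2 lower), against 33.7% of all genes, and with median-of-ratios scaling Id2 and Spi1 were not called and Batf3 was called lower.

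Finally, the genes most like each of these genes were listed by Pearson correlation of log2 values over the 44 libraries after the mean of each group was taken off. The libraries share timepoints and depth differences, so these correlations are descriptions. The 5 genes most like Dbp were Tsc22d3 (r = 0.70), Pgp (0.62), Per1 (0.61), Msl1 (0.60) and Dnaja1 (0.59). Tsc22d3 encodes GILZ, a protein induced by glucocorticoids. It had 225 ± 25.1, 289 ± 39.7, 298 ± 34.9 and 291 ± 35.5 CPM (SD, n = 5) at ZT3, ZT9, ZT15 and ZT21 in WT mice with tumour cells. In mice labelled KO it had 334 ± 53.7 CPM at ZT3 and 797 ± 23.4 at ZT15 (n = 3), and after PBS 249 ± 21.5 and 335 ± 22.6 CPM. The lowest mean of Tsc22d3 was thus at ZT3 and the highest at ZT15 in each group, as for Dbp, but its average level was higher in mice labelled KO (0.96 ± 0.07, adjusted p = 1.57e-10), where that of Dbp was lower. A list of 7 glucocorticoid targets, which holds Tsc22d3 and Per1, summed to 1405 to 2203 CPM in WT mice with tumour cells, 1996 to 3481 in mice labelled KO and 2180 to 2841 after PBS. Much of that sum was Dusp1 (1011 to 2480 CPM over all libraries), which is also an immediate early gene. On average in mice labelled KO, 4 of 7 were called higher and 2 lower, Per1 among the latter, against 23.5% and 10.2% of all genes. After PBS 4 were called higher and 0 lower, against 24.6% and 13.3%.

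For Tef the most like were Mtmr1 (r = 0.79), Uhmk1 (0.75), Ulk2 (0.74), Zswim4 (0.72) and Rab43 (0.72), and none of these encodes a known component of the clock. Nr1d2 ranked 22 in likeness to Tef (r = 0.69). Mtmr1 encodes a lipid phosphatase of the myotubularin family and had 157 ± 44.2, 171 ± 31.0, 149 ± 41.7 and 128 ± 14.7 CPM at ZT3, ZT9, ZT15 and ZT21 in WT mice with tumour cells (SD, n = 5), spreading within timepoints as Tef did.

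For Nfil3 they were Nr4a2 (r = 0.74), Dusp5 (0.68), Btg2 (0.67), Flrt3 (0.66) and Junb (0.64). Nr4a2 encodes an orphan nuclear receptor, Dusp5 a phosphatase of ERK kinases and Junb an AP-1 subunit, and these are known as genes that respond quickly to stimulation. Nr4a2 had 26.0 ± 13.0, 18.8 ± 4.21, 26.7 ± 11.4 and 16.8 ± 7.09 CPM (SD, n = 5) at ZT3, ZT9, ZT15 and ZT21 in WT mice with tumour cells. In that group the means of Nr4a2 at ZT3 and ZT15 were above those at ZT9 and ZT21, as were those of Nfil3. That order was not seen for either gene in mice labelled KO or after PBS. The correlation of Nr4a2 with Nfil3 was 0.82 in WT mice with tumour cells, 0.75 in mice labelled KO and 0.43 after PBS. Junb is also among the 12 immediate early and dissociation genes, of which 9 were called higher and 1 lower on average in mice labelled KO, and 10 higher and 2 lower after PBS. Of all genes, 23.5% were called higher and 10.2% lower in mice labelled KO, and 24.6% and 13.3% after PBS. Over the same libraries, the correlation of Dbp was 0.29 with Tef and -0.27 with Nfil3, and that of Tef with Nfil3 was 0.17, with ranks of 766 or beyond for each of these pairs. These values differed by group. In WT mice with tumour cells, mice labelled KO and PBS mice, Dbp with Tef gave 0.45, 0.38 and -0.18, Dbp with Nfil3 -0.05, -0.41 and -0.59, and Tef with Nfil3 0.25, 0.16 and -0.05, over 20, 12 and 12 libraries.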

How the data were processed

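RNA was measured in sorted DCs of 44 libraries. The authors used STAR for alignment (mm10) and HTSeq 0.9.1 for gene counts, per the submitters' processing notes, and deposited CPM, whose columns total 1000000. Whole multiples of 1 read (within 0.01 reads) made up 87.5% to 89.3% of values. Because the others were fractions, count tests were not used, and depth was taken from these steps (median of 29.6 reads per CPM).

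Genes that reached 1 CPM in 5 or more libraries were tested on log2(CPM + 0.5) with limma 3.58.1 (R 4.3.3) and Benjamini–Hochberg adjustment over 11963 genes, with a threshold of 0.05. Fold changes on this scale understate those of low genes. Cosines of 24 h, timepoint F tests and contrasts were fitted within each group, and interactions and averages on the 32 libraries of both groups. The replicate number was not used, and the labels name no batch. The mice came from more than 1 independent experiment by the study's account, and because the labels do not assign libraries to experiments, within-experiment values could not be given and the tests ignore them. No pair of libraries held identical values. Tests are two-sided.

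Simulated data had normal noise drawn independently for each gene and library, without the correlation between genes of real libraries, so recovery in the real data may differ. In these simulated data the cosine in WT mice with tumour cells recovered 49% of genes with an amplitude of 0.5 and 84% with an amplitude of 1. In mice labelled KO it recovered 22% and 65%, and after PBS 24% and 73%. For a difference of 1 on the log2 scale between ZT15 and ZT3, that contrast recovered 53%, 23% and 15% in WT mice with tumour cells, mice labelled KO and PBS mice, and the timepoint F test 53%, 8% and 1%. With a rhythm in WT mice with tumour cells only, interactions recovered 57% (KO) and 58% (PBS) at an amplitude of 1. Averages recovered 23% and 20% at a difference of 0.3.

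Genes named besides Dbp, Tef and Nfil3 were 15 clock genes, 6 PAR-bZIP targets, 8 factors of conventional DC development, overlapping genes and the 5 genes most correlated with each. Tsc22d3, Mtmr1 and Nr4a2 values are those of the first of each 5. These genes and lists were chosen with earlier results of these data known, and 1 further gene of the clock list is not reported here. Alternatives were the pseudocount, scaling, filters, moderation, weights, a replicate block and omission of each library. Analyses used Python 3.11.15, numpy 2.4.6, pandas 2.3.3 and matplotlib 3.10.9.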

Additional observations from a re-analysis of the deposited data

Results flagged for a closer look

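In WT mice with tumour cells at ZT9, Dbp had 33.5 CPM in replicate 4, while the other 4 libraries had 39.9 to 42.4 CPM. The gap to the nearest library was 0.718 of the range of the group, above the limit of 0.71 for 5 libraries in Dixon's test. Of 12 groups of 5 libraries tested for the 3 genes, this was the only one past the limit, and chance alone flags about 1 in 20. No difference between groups had libraries moving wholly in opposite directions.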

How the results depend on the processing

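Values here are adjusted p-values of limma unless stated. Of 48 results for Dbp, Tef and Nfil3, 32 kept their direction and side of the threshold under every alternative run. The same-numbered libraries of different timepoints did not deviate together (correlations from -0.237 to 0.163), so the numbers do not pair the mice. With the replicate block, the cosine of Dbp in WT mice with tumour cells had 0.129, and the averages after PBS had 0.107 (Nfil3) and 0.0976 (Tef). The difference of Dbp between ZT15 and ZT3 in these WT mice passed with a pseudocount of 1 (0.0409), median-of-ratios scaling (0.00292), a mean of at least 10 CPM (0.0149), an intensity trend (0.0171) and array weights (0.0121), and that in mice labelled KO with a mean of at least 10 CPM (0.0369) and a trend (0.0475). Tef on average in mice labelled KO passed with median-of-ratios scaling (0.00749), a mean of at least 10 CPM (0.0464), a trend (0.0425) and weights (0.00306). With the reads of Sphk2 added, chosen after seeing the data, Dbp had 0.28 (cosine), 0.0842 (timepoints) and 0.73 (average in mice labelled KO). The average of Nfil3 in mice labelled KO turned negative with median-of-ratios scaling (0.702), weights (0.843) and the replicate block (0.795), and that of Dbp after PBS with median-of-ratios scaling (0.955) and with Sphk2 added (0.372).

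Leaving out 1 library gave, in WT mice with tumour cells, 0.00901 to 0.0937 for the cosine of Dbp, 0.0113 to 0.214 for its ZT15 to ZT3 difference, and 0.735 to 0.992 and 0.789 to 0.995 for ZT15 minus ZT3 and ZT9 minus ZT21 of Nfil3. In mice labelled KO it gave 0.843 to 0.988 (Nfil3, ZT15 minus ZT3) and 0.759 to 1 (Tef, ZT9 minus ZT21), and after PBS 0.63 to 0.974 (Tef, ZT15 minus ZT3) and 0.975 to 1 (Nfil3, ZT9 minus ZT21). For averages it gave 0.692 to 0.991 (Nfil3) and 0.0247 to 0.137 (Tef) in mice labelled KO and 0.00907 to 0.0723 (Tef) after PBS. Median-of-ratios scaling shifted the median of all genes by up to 0.12 on the log2 scale (ZT9 minus ZT21 in mice labelled KO). The causes of these changes were not tested. A test of read counts was not run, and groups of 3 limit what the KO and PBS fits can show.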
